A study of Mus musculus with 4 samples.

Results

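The 10 genes described here act against Wnt signalling or are switched on by it: Dkk2, Dkk3, Sfrp1, Sfrp2, Wif1, Notum, Axin2, Lef1, Nkd1 and Nkd2. They were chosen by symbol among 32285 measured genes and followed in 13739 of 15863 cell barcodes, which had 500 or more genes detected and no more than 10% of UMIs from mitochondrial genes. UMIs, unique molecular identifiers, count captured RNA molecules. Noses of embryonic day 14.5 mice were dissociated whole, frozen, and profiled by droplet RNA sequencing of transcript 3′ ends. The 2 libraries titled WT are called control. Their genotype label is C57Bl/6J, whereas the series design gives yap flox/flox;taz flox/flox without Cre, and this disagreement was not settled. The 2 libraries titled Sox10Cre/Yap/Taz cKO are called mutant. Their label lists Tg(Sox10-cre)1Wdr with Yapflox and Tazflox on C57Bl/6J, and the series design gives Sox10cre;yap flox/WT;taz flox/flox, so that 1 Yap allele stays wild type. The Sox10 promoter that drives Cre is known to act in neural crest cells, and which cells of these noses had recombined was not measured. Each library is taken as a separate sample. With 2 a group the p-values reach no further than these samples, and the tests take their estimate of spread partly from other genes.

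In the canonical Wnt pathway a secreted Wnt protein binds a Frizzled receptor and an Lrp co-receptor, beta-catenin escapes destruction, and it activates genes together with the transcription factors Lef1 and the Tcf proteins. Secreted antagonists limit this outside the cell: Dkk proteins act at the Lrp co-receptors, Sfrp proteins and Wif1 bind Wnt itself, and Notum removes the lipid that Wnt needs for receptor binding. Axin2, Nkd1 and Nkd2 are intracellular inhibitors that the pathway switches on, so their transcripts are widely read as a sign of its activity. In the embryonic face this signalling takes part in outgrowth of the facial processes and in bone formation.

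Retained cells numbered 4075 and 2474 in control 1 and control 2 and 2995 and 4195 in mutant 1 and mutant 2, with between 19767873 and 35331450 UMIs a library and median depths between 5282 and 8549 UMIs per cell. Libraries shared between 4 and 8 barcodes a pair. Cells were put in classes by marker genes, none of which is among the 10. The mesenchyme-like class held 8923 cells, and none of its 9 markers was at 0. The gate for respiratory epithelium was led by Gstm1, Bpifa1 and Otx2os1 and held 7 cells in control 2. It asked for 4 of 14 markers, of which Ltf and Dmbt1 were at 0 in its cells. Cells that passed the keratinocyte and the respiratory gate at once were kept apart as a class of 220 cells. Levels are given as CPM, UMIs scaled to a common library total, which compares 1 gene between classes or libraries but not different genes with each other. Over all cells Yap1 had 65.0 and 65.2 CPM in control 1 and 2 against 56.4 and 56.0 CPM in mutant 1 and 2, and Wwtr1 (Taz) overlapped between the groups, with 118 and 145 against 123 and 132 CPM. Yap1 was also lower in mesenchyme-like cells of the mutants, at 64.5 and 65.1 against 55.2 and 57.6 CPM. In glia-like cells, whose gate markers include Sox10, it overlapped, at 46.7 and 47.1 against 42.0 and 53.7 CPM on 7 to 15 UMIs. Wwtr1 there was not lower in the mutants, at 227 and 193 against 245 and 322 CPM. A 3′ assay can count transcripts that lack the deleted exons. The part of this, of the wild-type Yap allele and of cells that had not recombined in these values was not tested.

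Stretches upstream of 4 of these genes are shown, Lef1 and Nkd2 on one side and Dkk2 and Sfrp2 on the other. These sides ran in opposite directions in mesenchyme-like cells with a UMI of Sox18 and in those with a UMI of Agtr2, as given further on. Each is the 250 bases before an annotated start in RefSeq (GRCm38.p6), read 5′ to 3′ on the gene's strand, with matches to CTTTG on either strand (CTTTG or CAAAG) in capitals, the core that Lef1 and Tcf proteins recognise. The stretches are chr3:131110073-131110322 (plus strand, the nearest to the GENCODE gene start of 4 Lef1 starts), chr13:73847632-73847881 (minus strand, Nkd2), chr3:132085042-132085291 (plus strand, Dkk2) and chr3:83766071-83766320 (plus strand, Sfrp2).
Lef1: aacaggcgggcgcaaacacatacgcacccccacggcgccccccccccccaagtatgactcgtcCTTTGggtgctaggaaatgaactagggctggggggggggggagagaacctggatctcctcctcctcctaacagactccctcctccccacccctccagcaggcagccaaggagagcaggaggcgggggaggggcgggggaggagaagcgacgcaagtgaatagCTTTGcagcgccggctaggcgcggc
Nkd2: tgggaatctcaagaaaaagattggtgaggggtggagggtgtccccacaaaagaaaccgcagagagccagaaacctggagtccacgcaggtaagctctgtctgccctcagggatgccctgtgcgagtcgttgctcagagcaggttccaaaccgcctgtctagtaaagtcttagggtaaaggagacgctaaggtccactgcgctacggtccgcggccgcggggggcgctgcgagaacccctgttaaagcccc
Dkk2: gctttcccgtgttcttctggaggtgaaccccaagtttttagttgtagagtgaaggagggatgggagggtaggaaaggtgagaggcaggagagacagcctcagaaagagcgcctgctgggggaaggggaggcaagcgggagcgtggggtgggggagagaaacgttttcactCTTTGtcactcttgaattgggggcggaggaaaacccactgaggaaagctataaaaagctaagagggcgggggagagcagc
Sfrp2: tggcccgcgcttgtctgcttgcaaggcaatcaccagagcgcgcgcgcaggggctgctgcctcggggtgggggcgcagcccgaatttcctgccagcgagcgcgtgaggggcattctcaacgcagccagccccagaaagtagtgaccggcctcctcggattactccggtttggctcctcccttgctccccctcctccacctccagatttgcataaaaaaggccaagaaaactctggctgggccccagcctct
Lef1 had 2 matches in this window, Dkk2 had 1, and Nkd2 and Sfrp2 had 0. Among 32851 windows of 250 bases in the table, 48.6% held a match, and 3 of the 7 members found there did (Lef1, Dkk2 and Wif1).

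Most UMIs of every member were in mesenchyme-like cells, from 51.6% of those of Sfrp1 to 87.6% of those of Sfrp2. The class held 64.9% of cells and 58.3% of all UMIs, and the shares of Sfrp1 and Notum (53.8%) were below that of all UMIs. Counts summed per class were compared with edgeR's quasi-likelihood test, each of 7 classes against the mean of the other 6, with Benjamini-Hochberg adjustment over 11189 genes and a threshold of 0.05. Of the 10 members, 9 had enough counts, and Notum did not. All 9 were higher in mesenchyme-like cells, where 31.6% of all genes tested were higher and 21% lower. In chondrocyte-like cells 7 were higher (all genes 25.3% higher, 16.8% lower) and in osteoblast-like cells 6 (22.3% and 12.7%). In mural-like cells, gated on markers of the contractile cells of vessel walls, 6 were higher (16.3% and 8.41%). In these classes 0 were lower. Their gates also kept cells that passed the mesenchyme gate. The mesenchyme markers summed to 3543 to 5638 CPM in mural-like cells, against 5751 to 6481 CPM in mesenchyme-like cells. In keratinocyte-like cells 2 were higher and 3 lower (30.4% and 22.5%). In endothelial-like cells 0 were higher and 4 lower (21.6% and 17.1%), and in macrophage-like cells 0 were higher and 8 lower (29.5% and 32.5%). Macrophages served as a gauge of free RNA: each member gave between 0 and 2 UMIs in their 251 cells, at a median depth of 8866 UMIs against 6605 in mesenchyme-like cells. For Dkk3 and Notum the count was 0, which allows a share of up to 1.20% of macrophage-like cells with a UMI, by counting error alone. On leaving out 1 library, calls were lost for Sfrp1 and Lef1 in osteoblast-like cells (without control 1, and Lef1 also without mutant 1), for Nkd1 in keratinocyte-like cells (without mutant 1), for Sfrp1 (without control 1 or mutant 2), Sfrp2 and Nkd2 (without mutant 2) in endothelial-like cells, and for Sfrp1 (without control 2) and Axin2 (without control 1 or control 2) in mural-like cells.

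**Figure D1:**
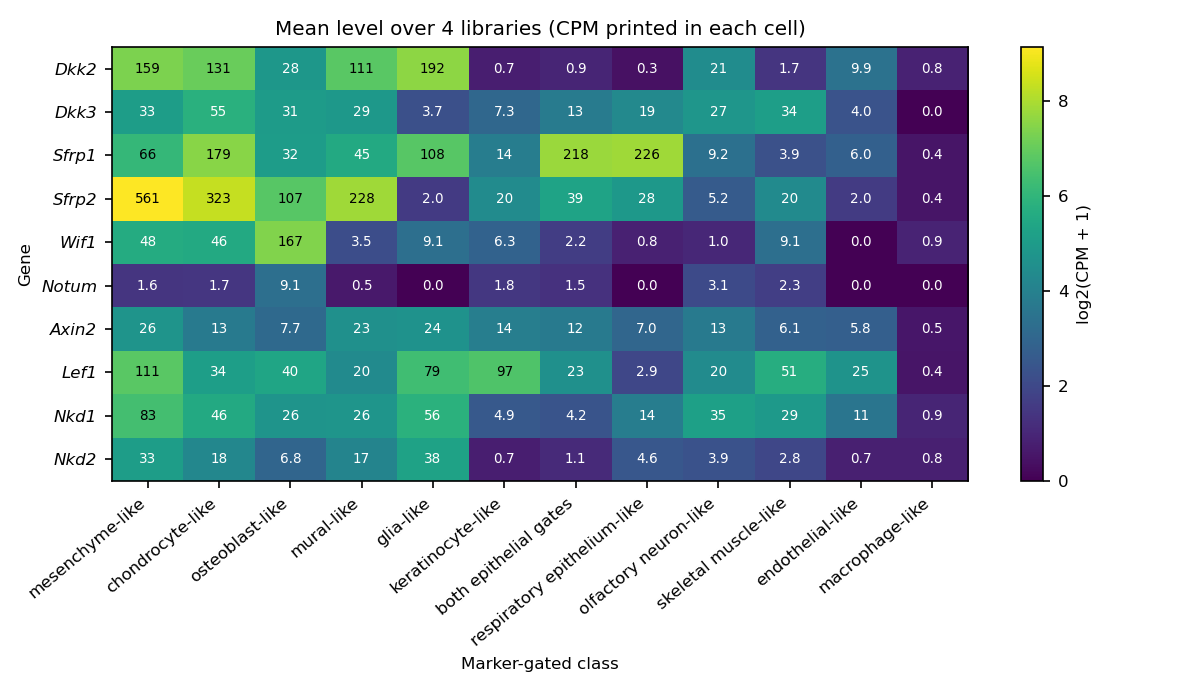
Mean level of each gene (rows) in each marker-gated class (columns) over the 4 libraries, as CPM in each field and as log2(CPM + 1) in colour. Sfrp2 peaks in mesenchyme-like cells, Wif1 and Notum in osteoblast-like cells, and Sfrp1 in the respiratory gate and the cells of both epithelial gates.

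The 2 Dkk genes had different distributions. Dkk2, on chromosome 3 (132085292 to 132180304, GRCm38, plus strand), was highest in glia-like cells, with 137, 207, 269 and 153 CPM in the order control 1, control 2, mutant 1 and mutant 2, which is kept from here on. Mesenchyme-like cells followed at 144, 199, 148 and 144 CPM, and then chondrocyte-like cells at 113, 230, 66.4 and 115 CPM; these 3 neighbours overlapped between libraries. The glial level came from few cells, 30 of 100 with a UMI, and 1 of them held 49 of the 185 UMIs. In the 777 keratinocyte-like cells only 7 UMIs of Dkk2 were found, and the class was lower than the others by 4.93 ± 1.12 on the log2 scale (SE, adjusted p = 0.000412, lost without mutant 2). Dkk3 (chromosome 7, 112116017 to 112159057, minus strand), a divergent relative of the Dkk proteins, was highest in chondrocyte-like cells at 52.9, 43.1, 59.1 and 63.8 CPM. It lay between 25.4 and 37.1 CPM in mesenchyme-like and between 24.4 and 34.04 CPM in osteoblast-like cells, which overlapped. Its olfactory neuron-like level rested on control 1 alone, at 106 CPM against 0 in the other 3 libraries, and 25 of the 26 UMIs there were in 1 cell.

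Sfrp1 and Sfrp2, which bind Wnt through a domain like that of the Frizzled receptors, had their highest mean levels in different classes. Sfrp2 (chromosome 3, 83766321 to 83774316) was the most counted member, with 617, 417, 615 and 594 CPM in mesenchyme-like cells and a UMI in 60.8% of them (47.4% after thinning each cell to 3000 UMIs, which left out 1194 shallower cells of all classes). Its mesenchyme-like level exceeded the mean of the other classes by 4.49 ± 0.17 on the log2 scale (adjusted p = 3.14e-19). Glia-like cells held 2 UMIs of Sfrp2 in all, beside 102 of Sfrp1. Sfrp1 (chromosome 8, 23411502 to 23449632) was highest in the respiratory gate at 211, 180, 269 and 243 CPM and in the cells of both epithelial gates at 173, 116, 324 and 261 CPM. A UMI of Sfrp1 was found in 73.0% of the 230 respiratory-gate cells (42.9% after thinning). Keratinocyte-like cells were far lower at 18.2, 5.17, 10.7 and 21.2 CPM, below the respiratory gate in every library. Chondrocyte-like cells had 167, 176, 192 and 183 CPM, and mesenchyme-like cells had 71.8, 64.5, 62.6 and 66.4 CPM, lower in every library than glia-like cells at 134, 98.8, 76.9 and 123 CPM.

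Wif1 and Notum had their highest mean level in osteoblast-like cells, although most of their UMIs were in the far larger mesenchyme-like class. Wif1 (chromosome 10, 121033960 to 121100650) was at 131, 144, 234 and 160 CPM in osteoblast-like cells and between 36.8 and 53.8 CPM in mesenchyme-like cells, higher in osteoblast-like cells in all 4 libraries. The osteoblast-like level exceeded the mean of the other classes by 5.63 ± 0.24 on the log2 scale (adjusted p = 3.38e-17), and 58.4% of these cells had a UMI (33.8% after thinning). In 170 endothelial-like cells 0 UMIs of Wif1 were found, which allows a share of up to 1.76% of cells with one. Notum (chromosome 11, 120653788 to 120661175, minus strand) was rare, with a UMI in 1.05% of mesenchyme-like cells. In osteoblast-like cells it reached 8.35, 12.2, 10.5 and 5.49 CPM on 32 UMIs, not above every other class in each library (olfactory neuron-like cells of mutant 1 had 12.5 CPM on 2 UMIs), and 7.29% of those cells had a UMI. The 329 osteoblast-like cells were 2.39% of all cells and held 16.1% of Notum UMIs.

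Axin2 (chromosome 11, 108920349 to 108950783) was low everywhere, highest in mesenchyme-like cells at 24.99, 30.6, 22.5 and 24.3 CPM, with glia-like and mural-like cells overlapping that level. Lef1 (chromosome 3, 131110471 to 131224356) was at 73.6, 119, 144 and 108 CPM in mesenchyme-like cells and at 114, 75.5, 84.2 and 115 CPM in keratinocyte-like cells, and these overlapped. Axin2 and Lef1 were the members that rose in keratinocyte-like cells, by 0.96 ± 0.31 (adjusted p = 0.0101, lost without mutant 2) and 2.50 ± 0.23 (adjusted p = 1.71e-10) on the log2 scale. In the respiratory gate Lef1 was at most 5.5 CPM, where Sfrp1 was high. Nkd1 (chromosome 8, 88521354 to 88594884) was at 78.3, 72.6, 88.0 and 91.9 CPM in mesenchyme-like cells and between 30.7 and 74.7 CPM in glia-like cells. Nkd2 (chromosome 13, 73818534 to 73847631, minus strand) was at 28.2, 25.5, 42.1 and 36.0 CPM in mesenchyme-like and between 24.9 and 69.0 CPM in glia-like cells. Keratinocyte-like cells had 7 UMIs of Nkd2 and 44 of Nkd1.

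Patterns across the 44 class and library sums were compared by Pearson's r of log2(CPM + 10) as a description, since the sums share libraries and class markers. Among 11173 other genes the nearest to Sfrp2 were Ogn (r = 0.938), Egfl6 and Nfatc4, and the nearest to Wif1 were Chrdl1 (0.909), Prss35 and Alpl, the alkaline phosphatase of bone, which is also a gate marker. Those nearest to Dkk2 were Ntrk3 (0.893), Chsy3 and Alx4, and those nearest to Nkd2 were Postn (0.848), a mesenchyme gate marker, Vstm2b and Adamts5. For Sfrp1 they were Has2 (0.831), Ror1 and Rarb; for Dkk3, Rcn2 (0.8003), Ptprd and Loxl1; for Lef1, Ghr (0.797), Sema3d and Rnf217. For Nkd1 they were Mfap2 (0.788), Mmp16 and Ndn; for Notum, Itga10 (0.777), Gm40193 and Cgref1; and for Axin2, Ntm (0.742), Mocs2 and Mysm1. Among the members themselves, Dkk2 with Nkd2 had the highest r (0.780), and Axin2 with Notum the lowest (-0.0784).

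Within the mesenchyme, cells with a UMI of 1 of 26 regional genes, many of them transcription factors of the face, were compared with mesenchyme-like cells without it, with the library as a block. The gates overlap, because a cell can hold several of these transcripts, and a cell with more UMIs is more likely to enter a gate. Of 254 member tests, 52 were higher and 83 lower, against 5.89% higher and 6% lower over all genes and regions. Sfrp1 ranged from 20.4 CPM in Sox18+ cells to 259 CPM in Itgbl1+ cells. It was higher by 2.22 ± 0.10 on the log2 scale in Itgbl1+ cells, 2.08 ± 0.09 in Crym+, 1.97 ± 0.09 in Cldn11+, 1.84 ± 0.13 in Foxc2+ and 1.84 ± 0.14 in Pax9+ cells. Foxc2 and Pax9 are transcription factors of the cranial mesenchyme. Lef1 was lower in 4 of these 5 gates, by 1.20 to 1.69 on the log2 scale, and in Itgbl1+ cells its change of -0.45 did not pass. Nkd1 was lower in 4 of the same 5, with Cldn11+ cells as the exception.

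The reverse held in Sox18+, Pou3f4+ and Pax3+ cells. Lef1 averaged 272 CPM in the 438 Sox18+ cells against 102 CPM outside, higher in all 4 libraries (1.42 ± 0.10, adjusted p = 2.07e-07). Sox18 is known from vessel and hair follicle development. Sfrp1 fell by 1.84 ± 0.17 in these cells, Sfrp2 by 1.27 ± 0.10 and Dkk2 by 0.82 ± 0.11, while Wif1 rose by 1.17 ± 0.12, Nkd1 by 0.67 and Nkd2 by 0.50. Pou3f4+ cells had Lef1 higher by 1.07 ± 0.10, Sfrp1 lower by 1.74 ± 0.14 and Dkk2 lower by 1.35 ± 0.14. In Pax3+ cells Lef1 rose by 0.88 ± 0.10, Nkd2 by 0.42 and Sfrp1 fell by 1.28 ± 0.09. Axin2 did not follow Lef1 here: its values were 0.01, 0.05 and -0.11 in the 3 gates, and none passed.

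Agtr2+ cells, 1296 in number, carried the highest Sfrp2 at 1057 CPM, higher by 1.19 ± 0.04, together with higher Dkk2 (0.84 ± 0.04) and Sfrp1 (0.54). All the other members but Dkk3 were lower there, Lef1 by 1.69 ± 0.09, Nkd2 by 1.19 ± 0.14, Nkd1 by 1.17 ± 0.08, Wif1 by 1.31 ± 0.09, Notum by 1.94 ± 0.61 and Axin2 by 0.46. Crabp1+ cells showed the opposite signs: Nkd2 rose by 0.94 ± 0.09, Nkd1 by 0.89 ± 0.05, Notum by 1.24 ± 0.32, Axin2 by 0.58 and Wif1 by 0.59, and Sfrp1, Dkk2 and Sfrp2 were lower. Crabp1 encodes a retinoic acid binding protein. Pax7+ cells had the highest Wif1, at 98.8 CPM (1.06 ± 0.17). Dlx5+ cells had the lowest Nkd1 and Nkd2, at 35.8 and 12.1 CPM.

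**Figure D2:**
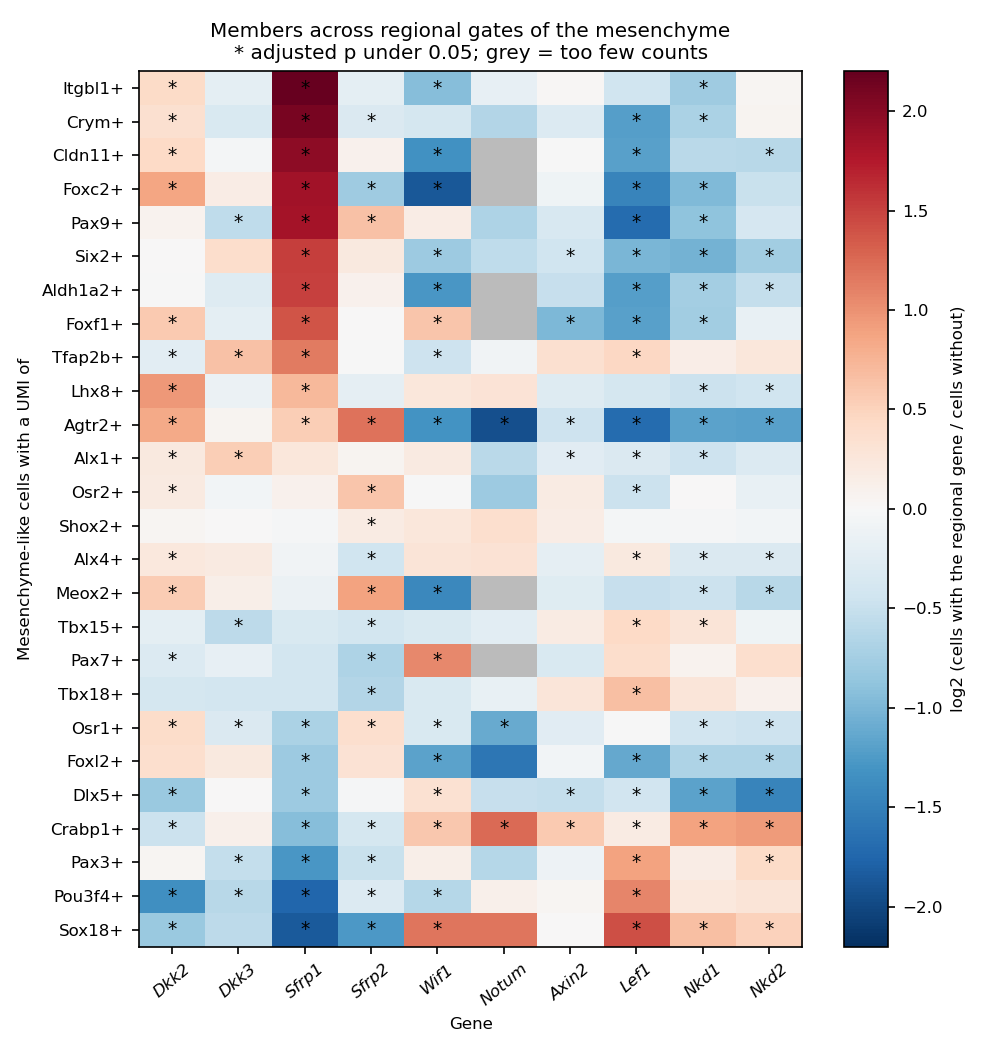
Log2 ratio of each gene (columns) between mesenchyme-like cells with and without a UMI of a regional gene (rows, ordered by Sfrp1), red for higher and blue for lower, with a star where the adjusted p was under 0.05 and grey where counts were too few. Sfrp1 runs from 2.22 in Itgbl1+ to -1.84 in Sox18+ cells, and Lef1 is blue in most of the rows where Sfrp1 is darkest red.

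Whether these genes differed with the Sox10-Cre deletion of floxed Yap and Taz alleles was asked by comparing mutant with control libraries within each class, with the same edgeR test and adjustment over all genes of the class. No member passed in any class: 0 of 10 over all cells (all genes 0%), 0 of 10 in mesenchyme-like (0%), 0 of 7 in osteoblast-like (0%), 0 of 9 in chondrocyte-like (0%), 0 of 7 in keratinocyte-like (0.018%), 0 of 1 in endothelial-like (0.416%) and 0 of 7 in mural-like cells (0.173%). In macrophage-like cells (0%) no member had enough counts. The glia-like class, with 18 cells in mutant 2, gave 0 of 4 (0%), and the cells of both epithelial gates gave 0 of 5 (0%); both were added after the data were seen. The DESeq2 Wald test called 0 members in each of these classes. At an unadjusted p under 0.05 there were 1 member over all cells (4.88% of all genes), 2 in mesenchyme-like (7.57%), 1 in osteoblast-like (4.61%), 2 in chondrocyte-like (4.58%), 1 in keratinocyte-like (5.03%), 0 in endothelial-like (6.07%), 3 in mural-like (8.94%), 0 in glia-like cells (4.26%) and 2 in the cells of both epithelial gates (7.71%). Bulk sums per class do not separate fewer expressing cells from less RNA per cell.

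In mesenchyme-like cells 7 members were higher and 3 lower in the mutants, with a median log2 change of 0.15 against 0.0013 over 15821 genes. In chondrocyte-like cells 7 were higher and 2 lower (median 0.35), in osteoblast-like cells 5 and 2 (median 0.10), in keratinocyte-like cells 6 and 1 (median 0.17) and in mural-like cells 3 and 4 (median -0.39 against 0.0039 over all genes). Nkd2 in mesenchyme-like cells had 28.2 and 25.5 CPM in control 1 and 2 against 42.1 and 36.0 CPM in mutant 1 and 2, so the groups did not overlap. Its change of 0.50 ± 0.12 on the log2 scale had an unadjusted p of 0.00321 and an adjusted p of 0.388 (from 0.00414 to 0.999 over the alternatives, and under the threshold without control 1 and with no filter on low counts). Nkd1 was at 78.3 and 72.6 against 88.0 and 91.9 CPM, also without overlap, a value of 0.21 ± 0.09 (adjusted p = 0.656). Axin2 had the opposite sign, from 24.99 and 30.6 to 22.5 and 24.3 CPM, again without overlap (-0.28 ± 0.13, adjusted p = 0.656). The other 7 members overlapped between the groups. With 2 libraries a group such separation is easily reached, and the share of all genes without overlap was not counted. Lef1 had 73.6, 119, 144 and 108 CPM, lowest in control 1 and highest in mutant 1, and its value was 0.36 ± 0.23 (adjusted p = 0.737), passing without control 2 (0.75).

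**Figure D3:**
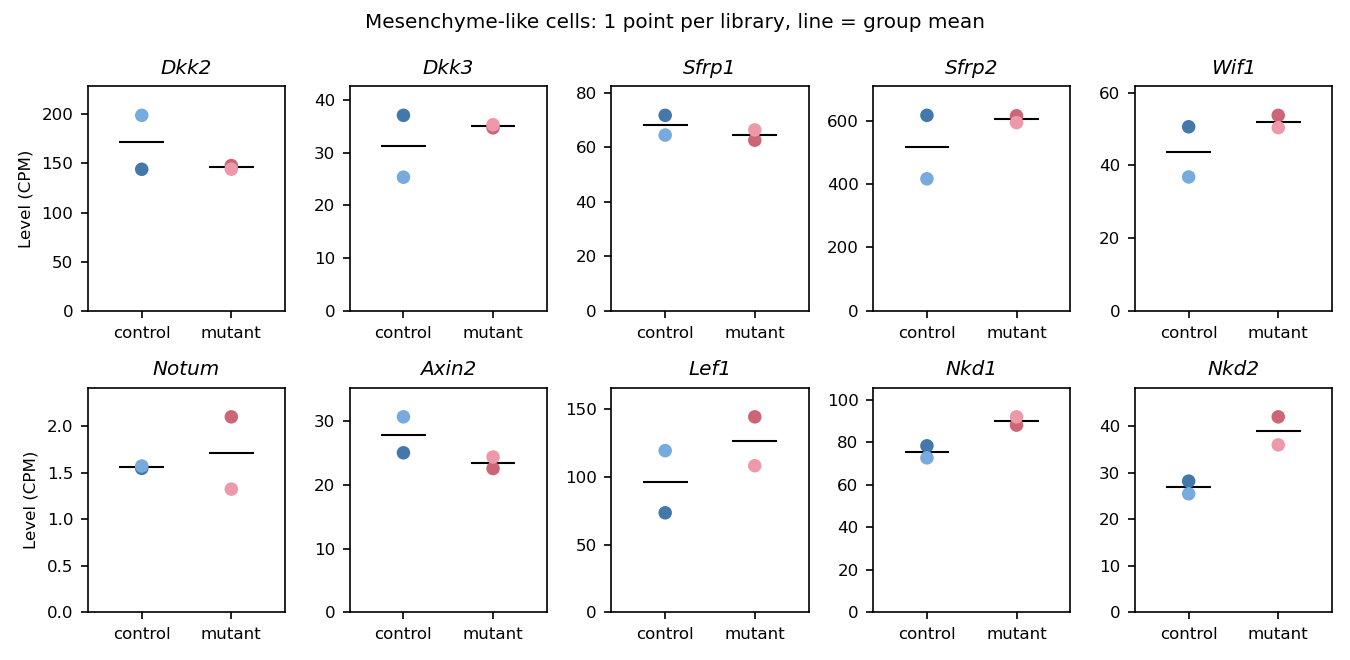
Level in CPM (vertical axis from 0) of each gene in mesenchyme-like cells, 1 point per library and a line at the mean of each group of 2. Nkd1 and Nkd2 are higher in both mutants than in both controls, Axin2 is lower, and the other 7 overlap.

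Control 2 set several of the other mesenchymal values. It had the highest Dkk2 (199 CPM against 144 to 148 in the rest) and the lowest Sfrp2, Wif1 and Dkk3 of the 4 libraries. Without control 1, so that control 2 stood alone, Dkk2 (-0.49), Sfrp2 (0.50) and Wif1 (0.46) passed the test. Without control 2, Sfrp2 and Dkk3 changed sign, to -0.07 and -0.12. The make-up of the mesenchyme differed between libraries as well: Sox18+ cells were 3.7%, 3.9%, 8.9% and 3.6% of mesenchyme-like cells, Pax3+ cells 34.0%, 30.4%, 55.4% and 38.6%, and Pou3f4+ cells 6.0%, 3.5%, 10.0% and 5.2%, each highest in mutant 1, where Lef1 was also highest. The part of these shares in the Lef1 level was not tested. The share of mesenchyme-like cells with an Nkd2 UMI was 15.4%, 15.2%, 24.1% and 14.8%, and after thinning each cell to 3000 UMIs it was 7.79%, 7.58%, 10.6% and 9.62%.

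Inside the 26 regional gates the members were compared between genotypes again. One of 235 member tests passed, against 0.0484% over all genes and regions, and 44 (18.7%) had an unadjusted p under 0.05, against 6.14% over all genes. The gates share cells, so these counts are not independent. The call was Wif1 in Pax7+ cells, with 58.6 and 68.0 against 151 and 117 CPM, a rise of 1.07 ± 0.21 on the log2 scale (adjusted p = 0.0399). With 2 UMIs of Pax7 asked for, the value was 1.29 with an adjusted p of 0.45. Nkd2 was higher in the mutants in 23 of 25 gates and lower in 2, with a median log2 change of 0.37, and Sfrp2 was higher in 23 of 26 with a median of 0.33. Axin2 was lower in 24 of 26 gates with a median of -0.37, and Dkk2 in 22 of 26 with -0.25. In Crabp1+ cells, the largest gate, Nkd2 was at 33.9 and 28.4 against 49.5 and 46.7 CPM (0.58 ± 0.12, adjusted p = 0.313). In Cldn11+ cells Axin2 was at 36.9 and 31.6 against 14.2 and 15.6 CPM (-1.23 ± 0.29, adjusted p = 0.230) and Nkd1 at 83.8 and 59.2 against 30.8 and 39.4 CPM (-1.05 ± 0.25, adjusted p = 0.231), while Sfrp2 was at 551 and 327 against 978 and 702 CPM (0.90 ± 0.23, adjusted p = 0.276, and 1.42 with an adjusted p of 0.0432 at 2 UMIs of Cldn11). Nkd1 thus had a negative value in Cldn11+ cells and a positive one over the whole mesenchyme.

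In the skeletal classes the values were as follows. Wif1 in osteoblast-like cells had 131 and 144 against 234 and 160 CPM, without overlap (0.47 ± 0.20, adjusted p = 0.992). Set against mesenchyme-like cells, the difference of the changes was 0.28 ± 0.21 for Wif1 (edgeR interaction test, unadjusted p = 0.198). In that test 0 members passed the adjusted threshold, against 0.178% of genes. At an unadjusted p under 0.05 there were 2 (Dkk2 and Nkd2), and the share of all genes under that limit was not counted. Dkk2 in chondrocyte-like cells was at 113 and 230 against 66.4 and 115 CPM, which overlapped by a narrow margin (-0.89 ± 0.30, adjusted p = 0.967). Without control 1 it was -1.35 with an adjusted p of 0.000485, and with the replicate number as a block it was -0.93 with an adjusted p of 0.00608 (to 1.00 over the alternatives). Nkd2 in chondrocyte-like cells was at 12.4 and 12.0 against 23.8 and 22.0 CPM on 10 to 29 UMIs a library (0.86 ± 0.33, adjusted p = 1.00).

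In keratinocyte-like cells Wif1 had 3.51 and 1.03 against 10.3 and 10.3 CPM, on 10, 1, 25 and 20 UMIs, a difference of 1.85 ± 0.51 (adjusted p = 0.918). Lef1 had a log2 difference of 0.0018 ± 0.21. In the interaction of keratinocyte-like with mesenchyme-like cells 0 members passed the adjusted threshold (0% of genes). At an unadjusted p under 0.05 there was 1, Wif1, and the share of all genes under that limit was not counted. In cells of both epithelial gates Lef1 was at 49.4 and 22.3 against 15.3 and 3.85 CPM (-1.94 ± 0.58, adjusted p = 0.589) and Sfrp1 at 173 and 116 against 324 and 261 CPM (0.98 ± 0.22, adjusted p = 0.589), each without overlap. Both passed with no filter on low counts, Lef1 also without control 2 and Sfrp1 also without control 1. Mean levels of Lef1 and Sfrp1 also differed between keratinocyte-like cells (97.2 and 13.8 CPM) and the respiratory gate (2.88 and 226 CPM). The part of the make-up of the class of both epithelial gates in these differences was not tested. In glia-like cells, where Sox10 was at 274 to 445 CPM, the log2 differences were 0.31 ± 0.35 for Dkk2, -0.38 ± 0.35 for Sfrp1, -0.27 ± 0.38 for Lef1 and -0.33 ± 0.47 for Nkd1, and all 4 overlapped between the groups.

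**Figure D4:**
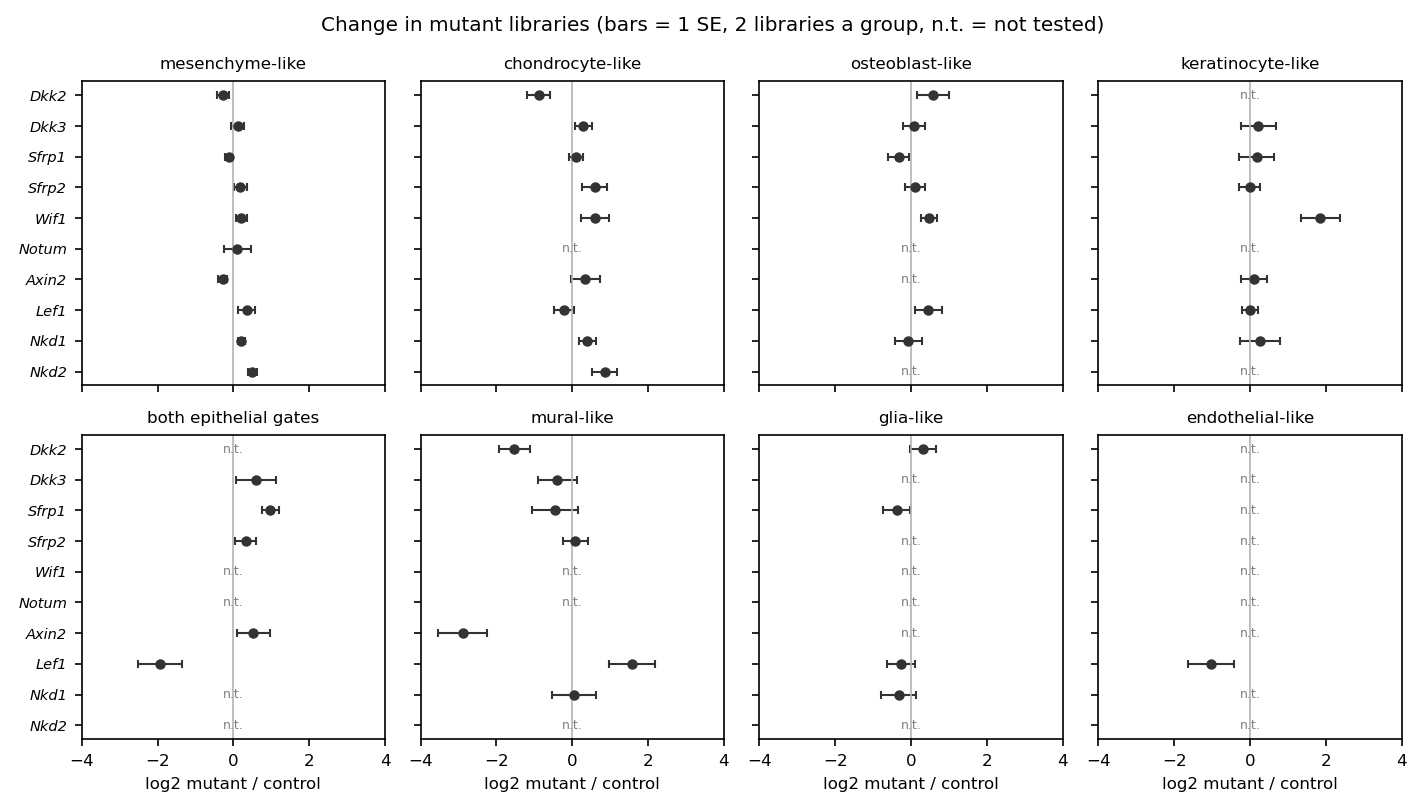
Log2 change from control to mutant (horizontal axis, bars of 1 SE, 2 libraries a group) of each gene in 8 classes, with n.t. where counts were too few to test. Most points in mesenchyme-like cells lie within 0.5 of zero, and the points farthest from zero are Axin2 in mural-like cells, Lef1 in cells of both epithelial gates and Wif1 in keratinocyte-like cells.

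Mural-like cells had the largest difference among the member tests by class, that of Axin2. It had 32.4 and 48.2 against 6.07 and 4.36 CPM, on 19, 17, 2 and 2 UMIs (-2.89 ± 0.64, unadjusted p = 0.000869, adjusted p = 0.118, and from 0.00196 to 0.646 over the alternatives, passing with no filter on low counts and without mutant 1). Dkk2 was at 104 and 230 against 39.4 and 69.8 CPM (-1.53 ± 0.41, adjusted p = 0.166, and from 3.73e-06 to 0.593 over the alternatives, passing with no filter, without control 1 and without mutant 2). Lef1 had 10.2 and 8.50 against 33.4 and 26.2 CPM on 32 UMIs (1.58 ± 0.60, adjusted p = 0.433). None of these 3 overlapped between the groups, and here too the share of all genes without overlap was not counted. In a fit added after the data were seen, the mural-like change differed from the mesenchyme-like change by -2.73 ± 0.70 for Axin2 (edgeR interaction test, adjusted p = 0.0147) and by -1.26 ± 0.27 for Dkk2 (adjusted p = 0.00129), where 0.902% of genes passed. With any 1 of the 4 libraries left out Axin2 no longer passed (adjusted p from 0.0507 to 0.417, values from -2.98 to -2.42), and Dkk2 did not pass without control 2 (-0.93) or without mutant 1 (-0.93). Of the genes that mark vessel wall cells, Acta2, the smooth muscle actin, was at 1413 and 581 against 2260 and 2284 CPM (1.154 ± 0.30, adjusted p = 0.161), and Vtn, which brain pericytes express, was at 348 and 493 against 42.5 and 28.4 CPM (-3.60 ± 0.30, adjusted p = 0.000708). The summed level of the 10 mural markers ran from 3247 to 4567 CPM in the controls and from 5234 to 5888 CPM in the mutants, with none at 0. These markers did not move together, and none passed the adjusted threshold. Like Acta2, Tagln (621 and 374 against 1183 and 1001 CPM) and Myh11 were higher in both mutants. Rgs5 was lower in both, at 1150 and 1125 against 1031 and 611 CPM. Kcnj8, Abcc9, Pdgfrb, Cspg4, Notch3 and Higd1b overlapped between the groups. Among mural-like cells with 5 or more Acta2 UMIs, Axin2 gave 6 and 9 UMIs in 28 and 13 control cells and 2 and 1 in 18 and 22 mutant cells. Among those with fewer it gave 13 and 8 in 27 and 19 control cells and 0 and 1 in 7 and 23 mutant cells. Dkk2 did not overlap in either set, with 73.6 and 160.05 against 38.3 and 8.65 CPM in the first and 142 and 298 against 42.3 and 132 CPM in the second. Lef1 did not overlap in the first set (6.14 and 11.4 against 42.5 and 38.9 CPM) but overlapped in the second (15.4 and 5.62 against 10.6 and 13.2 CPM, on 1 to 4 UMIs a library). The part of this mixture of vessel cells in the result was not tested beyond these counts.

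The other 48 genes fixed for the pathway, among them Frizzled receptors, Tcf factors and further inhibitors, were tested in the same fits. Over all classes 1 passed. Apcdd1, a membrane inhibitor of Wnt signalling, fell in endothelial-like cells from 70.4 and 134 to 5.70 and 5.73 CPM, on 65, 57, 3 and 4 UMIs (-4.07 ± 0.46, adjusted p = 6.29e-06, 1 of 20 listed genes tested there). It passed under every alternative run, including each library left out (-4.50 to -3.63), and with the DESeq2 Wald test (adjusted p = 0.000538). Among the members only Lef1 could be tested in this class, at 9.75 and 61.2 against 11.4 and 17.2 CPM, which overlapped. A list of 8 genes known from brain endothelium, chosen after the calls were seen (Slco1c1, Mfsd2a, Slc38a5, Spock2, Foxq1, Foxf2, Slc7a5 and Lrp8), summed to 397 and 569.8 against 41.8 and 31.5 CPM, and the part of such cells in the Apcdd1 result was not tested. In mesenchyme-like cells 0 of 45 listed genes passed, with 6 higher and 5 lower at an unadjusted p under 0.05 (7.57% of all genes there) and a median log2 change of -2.03e-05 over the list. The higher were Lgr4 (0.47 ± 0.12), a receptor that potentiates Wnt, Ccnd1 (0.33), the inhibitor Apcdd1 (0.41), Sostdc1 (0.64), Tcf7l1 (0.23) and Tle2 (0.42). The lower were Wls (-0.48 ± 0.15), which carries Wnt proteins to the cell surface, Sfrp5 (-0.85), Dact1 (-0.24), Fzd1 (-0.30) and Fzd6 (-0.67). Adjusted p-values of these 11 lay between 0.421 and 0.656.

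**Figure D5:**
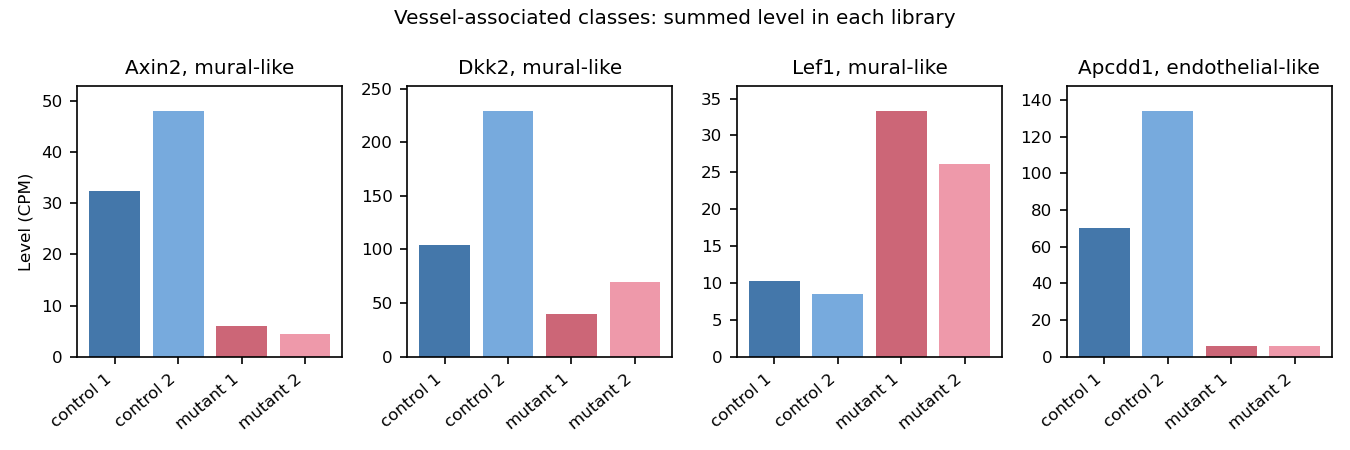
Summed level in CPM (vertical axes from 0) of Axin2, Dkk2 and Lef1 in mural-like cells and of Apcdd1 in endothelial-like cells, 1 bar per library. Axin2 is at 6.07 and 4.36 CPM in mutant libraries against 32.4 and 48.2 CPM in control libraries, and Apcdd1 at 5.70 and 5.73 against 70.4 and 134 CPM.

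In the remaining classes some genes of the list had an unadjusted p under 0.05 without overlap and none passed the adjusted threshold. The percentages in brackets are the share of all genes with an unadjusted p under 0.05, whether or not the groups overlapped. Their number was 3 of 32 in osteoblast-like cells (4.61% of all genes), 3 of 36 in chondrocyte-like (4.58%), 4 of 36 in keratinocyte-like (5.03%), 4 of 23 in mural-like (8.94%), 1 of 13 in macrophage-like (4.36%), 2 of 18 in glia-like cells (4.26%), 5 of 34 in cells of both epithelial gates (7.71%) and 7 of 47 over all cells (4.88%). In osteoblast-like cells they were Dkk1 (0.49), another secreted antagonist, Tcf7l1 (0.53) and Lgr6 (0.95). In chondrocyte-like cells they were Lgr6 (1.29), Sostdc1 (0.99) and Tle4 (-0.54). In keratinocyte-like cells they were Lgr4 (0.46), Dact1 (-2.41), Myc (-0.59) and Tcf7l2 (-0.34). In mural-like cells they were Apcdd1 (-1.13), Tnfrsf19 (-0.87), Ccnd1 (-0.71) and Fzd2 (0.88). In cells of both epithelial gates Sostdc1 (-1.77), Tnfrsf19 (-1.44), Znrf3 (-0.61) and Tle4 (-0.50) were lower and Ccnd1 (1.33) was higher. In glia-like cells Tnfrsf19 (-1.37) and Lgr4 (-0.85) were lower, and in macrophage-like cells Tle3 (1.17) was higher. Over all cells Sostdc1 (0.57), Lgr4 (0.39), Lgr6 (0.48) and Tle2 (0.43) were higher and Sfrp5 (-0.66), Wls (-0.39) and Myc (-0.28) lower. All values are log2 changes from control to mutant.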

How the data were processed

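The authors deposited filtered matrices of raw UMI counts per gene and barcode, made with Cell Ranger 8.0.1 per the file headers, whereas the submitters' processing notes name Cell Ranger 4, Seurat 4.3.0 and mm10. Gene positions are GENCODE M21 (GRCm38), matched by identifier. Members and lists were chosen with earlier results of these data known. Cells with at least 500 genes and at most 10% mitochondrial UMIs were gated by distinct markers detected (4, or 5 for mesenchyme and mural). Cells of several gates were set apart, except that osteoblast, chondrocyte and mural cells could also pass the mesenchyme gate. Doublets were kept (Scrublet in scanpy 1.11.5 marked 0 to 3 a library). Counts were summed per library and class with at least 20 cells a library and tested by quasi-likelihood in edgeR 4.0.16 after TMM scaling and its default low-count filter; DESeq2 1.42.0 was an alternative. SE is the log2 change over the square root of F. The test was also run on simulated counts, whose spread followed the trend over genes and not each gene's own spread, which limits that check. Named genes were all members and, from a list of 48 pathway genes, those that passed or had an unadjusted p under 0.05 without overlap. Alternatives were other size factors, no filter, a replicate block, each library left out, stricter cells or gates and high doublet scores removed. Labels name 2 sequencing providers without assignment, so batch and genotype cannot be told apart. A further sample named in the labels was not analysed here.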

Additional observations from a re-analysis of the deposited data

Results flagged for a closer look

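The change from control to mutant differed between mural-like and mesenchyme-like cells for 2 members, by the test of that difference. For Axin2 the mural-like minus mesenchyme-like difference was -2.73 on the log2 scale (edgeR interaction test, adjusted p = 0.0147), with fewer Axin2 UMIs in both mutants than in both controls in mural-like cells. For Dkk2 it was -1.26 (adjusted p = 0.00129). The fit was added after the data were seen. Axin2 lost its call with any 1 of the 4 libraries left out (adjusted p from 0.0507 to 0.417), and Dkk2 lost it without control 2 (0.503) or without mutant 1 (0.290). In the same cells Vtn and Tbx18, 2 genes known from vessel walls and chosen after the data were seen, were lower in both mutants than in both controls: Vtn had 348 and 493 against 42.5 and 28.4 CPM, and Tbx18 had 147 and 224 against 21.2 and 52.4 CPM. The adjusted p from edgeR was 0.000708 for Vtn and 0.0489 for Tbx18. Their part in the results for Axin2 and Dkk2 was not tested.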

How the results depend on the processing

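The number of genes called between mutant and control depended on the processing in every class, and the causes were not tested. With 1 library left out it ran from 0 to 410 over all cells, 9 to 829 in mesenchyme-like, 23 to 171 in osteoblast-like, 0 to 129 in chondrocyte-like, 9 to 264 in keratinocyte-like, 34 to 154 in endothelial-like, 36 to 185 in mural-like, 44 to 72 in macrophage-like, 16 to 74 in glia-like cells and 0 to 914 in cells of both epithelial gates, highest without control 1 except in macrophage-like cells (without mutant 2); the lone sample of a group is then assumed to vary like the other group. Without the filter on low counts it was 10, 567, 64, 44, 112, 72, 177, 66, 24 and 377 in that order. The DESeq2 Wald test gave 30 over all cells, 52 in mesenchyme-like, 12 in keratinocyte-like, 5 in endothelial-like, 3 in macrophage-like cells and 10 in cells of both epithelial gates. High doublet scores removed gave 2 in chondrocyte-like, 15 in endothelial-like and 2 in macrophage-like cells. Stricter cells gave 8 in keratinocyte-like, 61 in mural-like and 1 in macrophage-like cells. A gate with 1 more marker gave 2 in mesenchyme-like, 8 in keratinocyte-like, 8 in endothelial-like, 75 in mural-like and 2 in macrophage-like cells.

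Same-numbered libraries shared only a number (correlations of their deviations from -0.055 to 0.101). The replicate block gave 83 in mesenchyme-like, 47 in chondrocyte-like, 24 in keratinocyte-like, 6 in macrophage-like and 23 in glia-like cells.

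Interaction counts ran from 7 to 77 (osteoblast-like), 21 to 81 (keratinocyte-like) and 59 to 102 (mural-like) with 1 library left out, and 78 for keratinocyte-like cells without the filter. Counts of the class contrasts stayed within 1.5 times under every alternative run; of 270 member values there 257 kept direction and side and 13 lost the call with 1 library out. In mesenchyme-like cells 3 members changed sign with 1 library out: Dkk3 ran from -0.12 (without control 2) to 0.42, Sfrp2 from -0.066 (without control 2) to 0.50, and Notum from -0.29 (without mutant 1) to 0.39. Depth limits the small classes: among the classes Notum could be tested between genotypes over all cells and in mesenchyme-like cells only.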
